A study of Mus musculus with 8 samples.

Results

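The 40 genes described here encode the machinery that copies DNA in S phase, together with a few regulators of entry into that phase. They were taken by gene symbol from a deposited table of 17492 genes, and 40 of 40 had a row. They were set apart by role: 11 genes of origin licensing, 6 of helicase activation, 8 of polymerases and primase, 6 of the sliding clamp and its loader, 3 of single-strand binding, 2 of flap removal and ligation, and 4 regulators. The cells were bone marrow-derived macrophages of C57BL/6 mice, grown in culture from marrow precursors. RNA was sequenced from 4 libraries of cells in medium without serine and glycine, labelled as serine deficiency, and from 4 control libraries of untreated cells in normal medium. No genetic change is named for either group. The labels give neither the age or sex of the mice nor how long the amino acids were withheld, and they do not say whether libraries came from separate animals or cultures. The p-values therefore measure the spread between these libraries, which may be technical.

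Copying of a genome starts at origins, where the origin recognition complex (ORC), Cdc6 and Cdt1 load a ring of Mcm2 to Mcm7 in a step called licensing. In S phase, Cdc45 and the GINS complex bind that ring and turn it into a moving helicase. Polymerase alpha with primase then lays primers, and polymerases epsilon and delta extend them, held on DNA by the clamp Pcna that the RFC loader places. Most of these genes are targets of E2F transcription factors and are transcribed as cells pass from G1 into S phase. Macrophages in culture with the growth factor Csf1 can divide, whereas many resting tissue macrophages do not.

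Library totals lay between 17565291 and 18201599 estimated counts. Within groups, the 12 pairs of libraries differed by more than counting noise, with chi-square values of 1.41 to 3.46 per degree of freedom. The common coefficient of variation in the fit was 2.78%. Each library was kept as its own replicate, but these values cannot tell separate cultures from separate preparations of the same culture. The macrophage markers Adgre1 (5763 control and 4849 serine/glycine-free CPM, counts scaled to library size), Csf1r (946 and 1259 CPM) and Cd68 (856 and 1046 CPM) were abundant. Of 8 macrophage markers, 4 rose and 4 fell, and their summed level was 18919 to 19371 CPM in control and 18899 to 19174 CPM in serine/glycine-free libraries. Markers of marrow progenitors, which also divide, were scarce: 6 of 7 were in the table, none at 0 in every library, and they summed to 0.895 to 1.05 CPM in control and 1.05 to 1.66 CPM in serine/glycine-free libraries. Mpo and Elane reached at most 1 count in any library, while Cd34 rose from 0.419 ± 0.0968 to 0.838 ± 0.157 CPM (SD, n = 4; edgeR adjusted p = 0.0120). The 8 neutrophil markers summed to 0.969 to 1.34 CPM in control and 2.11 to 2.51 CPM in serine/glycine-free libraries. This was mostly S100a8 (0.755 and 1.87 CPM, edgeR adjusted p = 9.0e-06), the only one of the 8 with enough counts to test; the other 7 summed to 0.125 to 0.505 CPM and 0.347 to 0.610 CPM. The part of these cells in the results below was not tested.

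All 40 genes were expressed well enough to be tested, with 83 to 4261 counts per library. Without serine and glycine 13 of the 40 rose, 0 fell and 27 did not pass an adjusted p of 0.05 (edgeR quasi-likelihood test, Benjamini-Hochberg adjustment over all genes). The 13 were Cdt1, Mcm6, Mcm7, Gins2, Gins4, Pole2, Prim1, Pcna, Rfc2, Rfc4, Rpa3, Lig1 and E2f1. Among all 11700 genes tested, 33.2% passed, 15.9% higher and 17.3% lower, so the 32.5% of replication genes that passed is close to the share in all genes, with every call in one direction. At an unadjusted p under 0.05, 3 of the 40 were lower (Mcm2, Pola2 and Rfc1), and DESeq2 and limma-voom each called 0 lower. The changes were small: the 13 rises ranged from 1.08-fold to 1.34-fold, with a median of 1.16-fold. The median log2 change was 0.05 over the 40 genes and 0.01 over all genes tested. Summed over the 40 genes, control libraries 1 to 4 held 1752, 1753, 1716 and 1721 CPM, and serine/glycine-free libraries 1826, 1835, 1853 and 1837 CPM, so that every serine/glycine-free library lay above every control library. Of the difference of 102 CPM between group means, 29.8 CPM was left without Pcna, Mcm6 and Cdt1. These had the smallest adjusted p of the 40 and were chosen after values were seen, so the difference had to shrink. Without them the groups nearly met, at 1348 to 1383 CPM in control and 1384 to 1418 CPM in serine/glycine-free libraries. Gene by gene, the groups did not overlap for 11 genes upward (Mcm7 and Gins2 being the called genes that overlapped) and for 1 downward, Pola2, against 30.7% of all tested genes, 14.5% upward and 16.2% downward. In bulk RNA, more cells in S phase and more of these transcripts per cell cannot be told apart. In DESeq2 and at an adjusted p of 0.01, 9 of the 13 kept their call, and Mcm7, Gins2, Prim1 and Rpa3 lost it.

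Transcript length moved with these calls. With tested genes split into 4 equal bins of effective length, in the shortest bin 22.7% rose and 8.38% fell, whereas in the longest bin 11.5% rose and 28.9% fell. Of the replication genes, 14 lay in the shortest bin and 8 of these rose, and 3 lay in the longest and 0 rose. The 13 that rose had a median length of 0.511 times the median of tested genes, against 0.950 times for the 27 that did not pass. With each library's trend with length removed, 12 rose and 1 fell: Gins2, Prim1 and Rpa3 lost their call, Pole and Ccne2 passed upward, and Pola2 passed downward. The median over the 40 genes was then 0.03, against 0.0026 over all genes. The other 10 of the 13 kept their call.

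**Figure D1:**
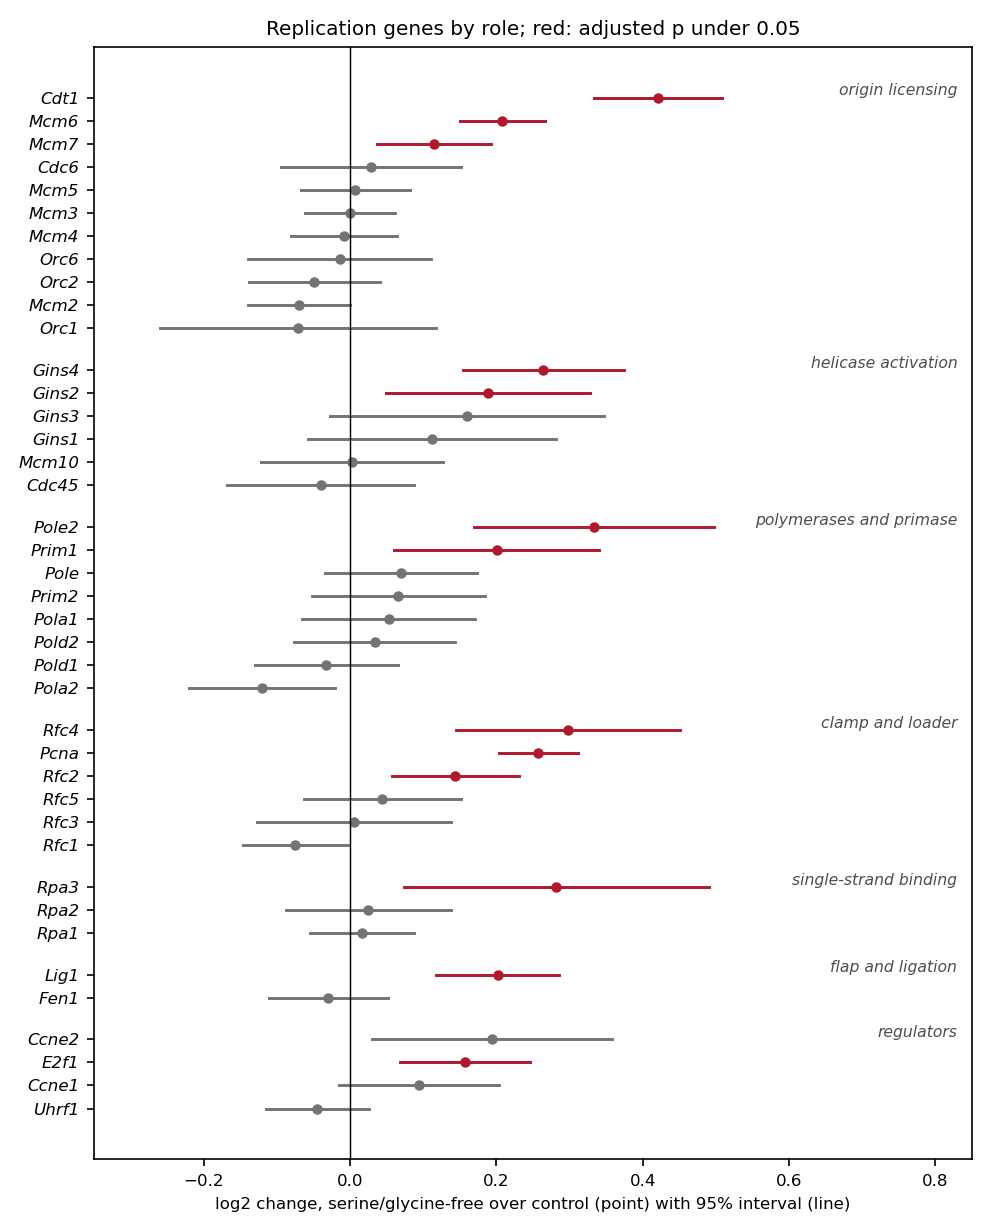
Log2 change of each of the 40 replication genes, serine/glycine-free over control, grouped by role, with points for the fitted change and lines for its 95% interval. The 13 red genes passed an adjusted p of 0.05 and all lie to the right of 0; Cdt1 is the farthest right at 0.42 and Pola2 the farthest left at -0.12.

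Promoter sequences are shown for the 3 genes with the smallest adjusted p, Cdt1, Pcna and Mcm6, and for Mcm3, whose protein sits in the same ring as that of Mcm6 and whose transcript had a log2 change of 0.00013. Each is the 250 bases before the annotated start on GRCm38.p6, from RefSeq, written 5′ to 3′ on the strand of the gene. Capitals mark E2F words (TTTCCCGC, TTTGGCGC, TTTCGCGC or TTTGCCGC) and the CCAAT box on either strand. The Cdt1 window is chr8:122567765-122568014 on the plus strand, and those of Pcna (chr2:132253181-132253430), Mcm6 (chr1:128359706-128359955) and Mcm3 (chr1:20820313-20820562) are on the minus strand.
Cdt1: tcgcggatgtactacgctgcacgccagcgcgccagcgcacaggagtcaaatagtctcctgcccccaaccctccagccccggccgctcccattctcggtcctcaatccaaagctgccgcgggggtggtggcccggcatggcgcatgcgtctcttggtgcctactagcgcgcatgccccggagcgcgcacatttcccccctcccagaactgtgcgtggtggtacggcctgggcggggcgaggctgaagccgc
Pcna: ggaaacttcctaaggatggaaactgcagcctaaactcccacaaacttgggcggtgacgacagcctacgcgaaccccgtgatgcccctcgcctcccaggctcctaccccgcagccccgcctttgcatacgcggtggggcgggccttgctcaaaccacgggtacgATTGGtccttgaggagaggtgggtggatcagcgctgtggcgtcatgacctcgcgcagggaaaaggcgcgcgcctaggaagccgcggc
Mcm6: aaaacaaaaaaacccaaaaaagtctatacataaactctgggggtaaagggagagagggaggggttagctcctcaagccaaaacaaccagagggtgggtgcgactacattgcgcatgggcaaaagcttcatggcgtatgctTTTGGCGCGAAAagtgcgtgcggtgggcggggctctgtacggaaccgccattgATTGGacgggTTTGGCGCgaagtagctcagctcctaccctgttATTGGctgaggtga
Mcm3: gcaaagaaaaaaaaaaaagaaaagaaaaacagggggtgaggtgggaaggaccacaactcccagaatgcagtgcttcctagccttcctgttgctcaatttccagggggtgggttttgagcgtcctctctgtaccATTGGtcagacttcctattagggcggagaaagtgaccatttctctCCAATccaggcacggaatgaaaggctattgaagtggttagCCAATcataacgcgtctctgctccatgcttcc
The Mcm6 window held 3 E2F words, of which a pair on opposite strands overlap, and 2 CCAAT boxes. The Mcm3 window held 3 CCAAT boxes and the Pcna window 1, neither with an E2F word, and the Cdt1 window held neither motif. Over the replication genes 32 of 40 had a promoter entry, with 39 starts, and 9 starts (23.1%) held an E2F word. The share was 1.86% over all 32851 starts listed by RefSeq and 3.33% over the 11863 starts of tested genes. A CCAAT box was found at 59.0% of the replication gene starts and at 33.9% of all starts. By gene, an E2F word stood before 2 of the 10 genes that rose and before 7 of the 22 that did not pass. No test was made of these shares. Absence of a word says only that these letters are not in this window.

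Among the licensing genes, Cdt1 rose most and most of the others did not pass. Cdt1, which brings the Mcm ring to the origin, measured 40.8, 40.4, 41.0 and 37.7 CPM in control libraries and 51.8, 54.3, 51.6 and 56.3 CPM in serine/glycine-free libraries. The groups were far apart, and the means were 39.97 ± 1.54 and 53.5 ± 2.23 CPM (n = 4, SD; 1.34-fold, log2 change 0.42, SE 0.043, edgeR adjusted p = 9.2e-11). Cdt1 (Entrez 67177) is a protein-coding gene on GRCm38.p6 chromosome 8 at 122568015 to 122573130. Its partner Cdc6 overlapped between groups (means of 18.96 and 19.3 CPM; log2 change 0.03, adjusted p = 0.760). The ORC genes that mark the origin, Orc1 (-0.07), Orc2 (-0.05) and Orc6 (-0.01), did not pass (adjusted p of 0.431 to 0.894). The interval of the Orc1 change spanned 0.835-fold to 1.08-fold, and Orc1 stood at 8.60 ± 1.154 CPM in control.

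Of the ring of Mcm2 to Mcm7, 2 of 6 genes rose, Mcm6 and Mcm7, and 4 did not pass. Mcm6 measured 136, 140, 134 and 136 CPM in control libraries and 156, 157, 157 and 161 CPM in serine/glycine-free libraries. Every serine/glycine-free value lay above every control value (log2 change 0.21, SE 0.029, edgeR adjusted p = 1.1e-07). Mcm6 (Entrez 17219) lies on chromosome 1 at 128331575 to 128359705. Mcm7 rose less, from 63.1, 60.2, 57.7 and 59.6 to 62.2, 66.3, 66.2 and 65.8 CPM. Its serine/glycine-free replicate 1 fell within the control range (log2 change 0.11, adjusted p = 0.0190), and its call was lost without control replicate 3 (adjusted p = 0.0845) and without serine/glycine-free replicates 2 (0.0505) or 3 (0.0580). Mcm3, Mcm4 and Mcm5 had log2 changes of 0.00013, -0.0081 and 0.0074, and Mcm2 of -0.07 (adjusted p = 0.117). For Mcm3 the 95% interval ran from 0.958-fold to 1.04-fold, so a change of the size seen for Mcm6 (1.16-fold) lay outside it.

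On the length-corrected TPM scale deposited by the authors, control levels in the ring ran from Mcm6 (87.4 ± 1.88 TPM, SD, n = 4) and Mcm3 (76.1 ± 1.39) to Mcm7 (48.8 ± 1.37), Mcm5 (47.6 ± 1.34), Mcm2 (46.0 ± 0.884) and Mcm4 (36.8 ± 0.826). Mean ± SD overlapped for Mcm7 and Mcm5 and for Mcm5 and Mcm2, and these levels were not tested against each other. To ask whether subunits of one complex moved unequally, the ratio of their counts was formed in each library, which cancels the scaling between libraries. Ratios were not corrected for length. The ratio of Mcm3 to Mcm6 was 0.831 to 0.854 in control and 0.710 to 0.740 in serine/glycine-free libraries. Ratios of Mcm6 to each of the other 5 subunits did not overlap between groups (exact permutation test, two-sided, p = 0.0286 for each). This is the smallest p that 4 libraries against 4 allow. Over the 45 subunit pairs of 8 complexes, 11 reached it, 7 of them in this ring. After Benjamini-Hochberg adjustment over the 45 their p was 0.117, so no pair passed. With a smallest p this large, an adjusted p under 0.05 would need many more pairs to reach it. The adjusted test therefore could not decide whether subunits changed unequally.

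**Figure D2:**
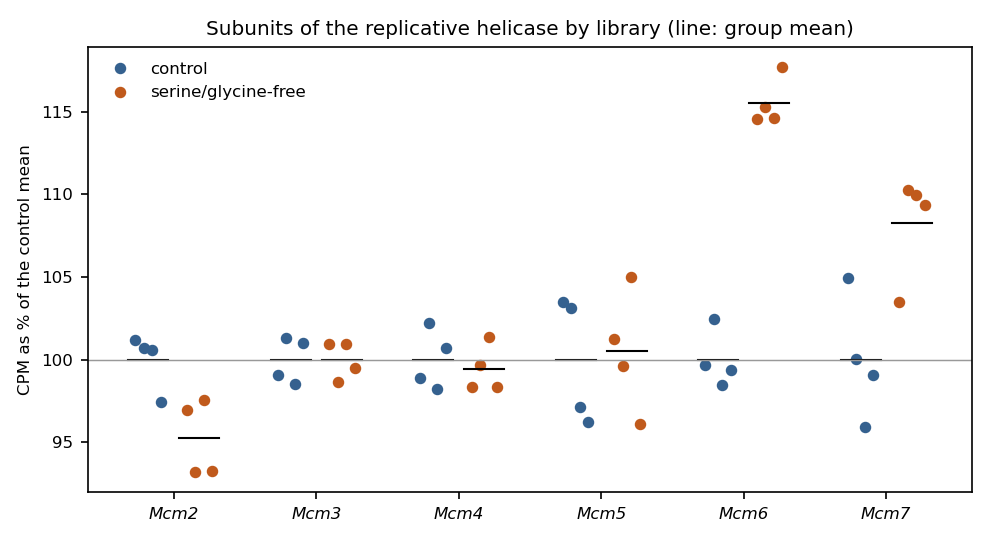
CPM of the 6 ring subunits in each library as a percentage of that gene's control mean, on an axis that does not start at 0; points are libraries and black lines group means. The serine/glycine-free libraries of Mcm6 stand apart from its controls, those of Mcm7 mostly so, and those of Mcm3, Mcm4 and Mcm5 are mixed with their controls.

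Of the helicase activation genes, 2 of 6 rose, both from GINS, a complex of 4 small proteins. Gins4 measured 22.5, 22.8, 22.9 and 21.0 CPM in control and 27.3, 25.6, 25.9 and 28.4 CPM in serine/glycine-free libraries, with no overlap (log2 change 0.26, SE 0.055, edgeR adjusted p = 0.00014). Gins2 went from 13.0, 13.1, 14.4 and 13.7 to 16.1, 14.8, 14.2 and 16.7 CPM, with serine/glycine-free replicate 3 inside the control range (log2 change 0.19, adjusted p = 0.0311). Gins2 no longer passed without control replicate 1 (adjusted p = 0.0862) or 2 (0.0789), without serine/glycine-free replicate 1 (0.0842) or 4 (0.116), or after correction for length (0.173). Gins1 (0.11) and Gins3 (0.16) had positive changes that did not pass, and intervals up to 1.22-fold and 1.27-fold include the size of the rise in Gins4. None of the 6 pairs within GINS had ratios without overlap. Cdc45 (-0.04, adjusted p = 0.674), which completes the helicase with GINS, and Mcm10 (0.0027, adjusted p = 0.980), which helps to fire it, did not pass. Serine/glycine-free replicate 2 of Mcm10 stood at 25.4 CPM against 20.6 to 21.2 CPM in the other 3.

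Among polymerases and primase 2 of 8 genes rose. Pole2, the second subunit of the leading-strand polymerase epsilon, measured 10.01, 9.71, 9.14 and 9.06 CPM in control and 12.5, 12.8, 12.3 and 10.2 CPM in serine/glycine-free libraries. Replicate 4 of the latter came close to the highest control but did not overlap it (log2 change 0.33, SE 0.081, edgeR adjusted p = 0.0011). Pole, the catalytic subunit of the same enzyme, stood at 28.9 ± 1.19 and 30.3 ± 1.62 CPM (n = 4, SD; log2 change 0.07, adjusted p = 0.319). After correction for length Pole passed at 0.13 (adjusted p = 0.0370). It has the longest transcript of the 40, at 2.57 times the median. The ratio of Pole to Pole2 overlapped between groups (exact permutation p = 0.114), so unequal change of these subunits was not shown.

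Primase and polymerase alpha, which work as one particle, contained genes with changes of both signs. Prim1, the catalytic primase subunit, measured 12.0, 12.8, 13.2 and 13.7 CPM in control and 15.1, 13.8, 14.9 and 15.5 CPM in serine/glycine-free libraries (log2 change 0.20, edgeR adjusted p = 0.0220). The groups only just separated, and the call was lost without control replicate 1 (adjusted p = 0.0870) and without serine/glycine-free replicates 1 (0.0518) or 4 (0.0605). Pola2, the regulatory subunit of polymerase alpha, was the only one of the 40 whose serine/glycine-free libraries all lay below the controls. Pola2 measured 35.8, 36.8, 35.3 and 35.3 CPM in control and 29.7, 33.0, 34.5 and 34.5 CPM in serine/glycine-free libraries. It did not pass (log2 change -0.12, adjusted p = 0.0557), but it did without serine/glycine-free replicate 3 (adjusted p = 0.0420) or 4 (0.0281). The ratio of Pola2 to Prim1 was 2.58 to 2.99 in control and 1.96 to 2.40 in serine/glycine-free libraries, without overlap. This pair too did not pass after adjustment (exact permutation test, adjusted p = 0.117), but the adjusted test could not decide, as for the Mcm ring. The intervals of change, 0.859-fold to 0.986-fold for Pola2 and 1.04-fold to 1.27-fold for Prim1, did not meet. Neither the ratio nor these intervals were corrected for length. The catalytic subunit Pola1 (0.05) and the large primase subunit Prim2 (0.07) did not pass, nor did Pold1 (-0.03) and Pold2 (0.03) of the lagging-strand polymerase delta (adjusted p of 0.420 to 0.685).

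The clamp and its loader had the highest share of rises among roles with more than 2 genes, 3 of 6. Of all 40 genes 32.5% rose, and of all tested genes 15.9%, and with so few genes in a role the shares were not tested. Pcna, the ring that tethers polymerases to DNA, was the most abundant of the 40 genes at 315 ± 3.35 TPM in control. Its values were 194, 189, 193 and 194 CPM in control and 234, 230, 227 and 231 CPM in serine/glycine-free libraries, well apart (log2 change 0.26, SE 0.027, edgeR adjusted p = 1.0e-10). Pcna (Entrez 18538) lies on chromosome 2 at 132249286 to 132253180. Of the loader, the small subunit Rfc4 rose from 11.9, 10.98, 10.4 and 11.03 to 13.4, 11.9, 14.6 and 14.5 CPM. Serine/glycine-free replicate 2 of Rfc4 was just above the highest control (log2 change 0.30, adjusted p = 0.0018). Rfc2, another small subunit, went from 48.2, 43.7, 46.7 and 43.5 to 48.3, 50.9, 49.9 and 52.1 CPM, again separated only narrowly (log2 change 0.14, adjusted p = 0.0079). Rfc3 (0.0056) and Rfc5 (0.04) did not pass. Rfc1, the large subunit found only in this loader, stood at 87.4 ± 1.77 and 83.0 ± 3.68 CPM (log2 change -0.07, adjusted p = 0.102), and it passed as lower without serine/glycine-free replicate 4 (-0.09, adjusted p = 0.0382). Ratios of Rfc1 to Rfc2, Rfc1 to Rfc4 and Rfc2 to Rfc3 did not overlap between groups. These ratios were not corrected for length, and Rfc1 was 1.69 times the median length, Rfc2 0.505, Rfc3 0.393 and Rfc4 0.394 times. They were among the 11 of 45 subunit pairs without overlap, and none passed after adjustment (exact permutation test, adjusted p = 0.117 for each). As for the Mcm ring, the smallest p that 4 libraries against 4 allow was too large for this adjusted test to decide. The intervals of change were 0.904-fold to 0.998-fold for Rfc1, 1.04-fold to 1.17-fold for Rfc2 and 1.11-fold to 1.37-fold for Rfc4. The Rfc1 interval did not meet those of Rfc2 and Rfc4, but those of Rfc2 and Rfc3 (0.916-fold to 1.10-fold) met. These intervals too were not corrected for length.

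**Figure D3:**
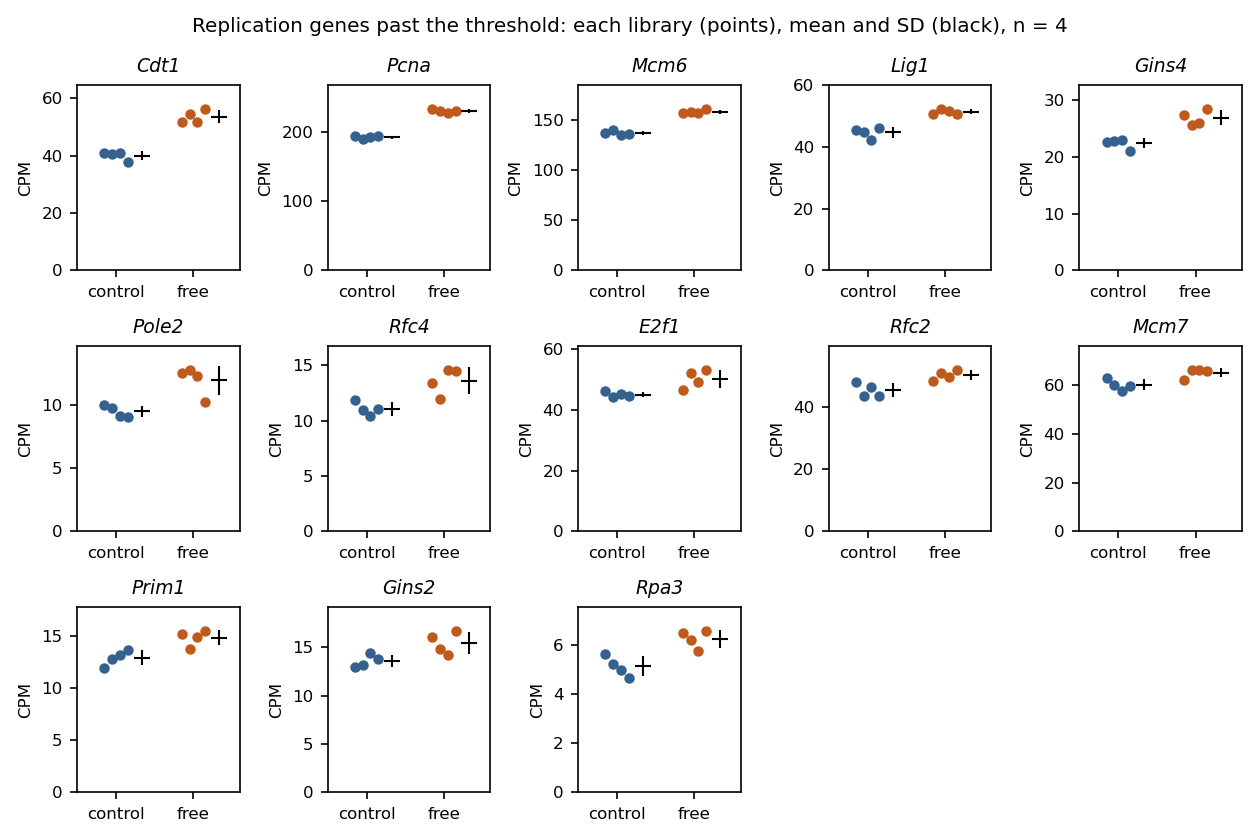
CPM of the 13 replication genes that passed the threshold, in order of adjusted p, with a point for each library and the mean and SD of each group of 4 beside it in black; every axis starts at 0, and free stands for serine/glycine-free. The groups separate fully for 11 genes and overlap by 1 library or more for Mcm7 and Gins2.

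Of the 3 subunits of the single-strand binding protein RPA, the smallest, Rpa3, rose. It measured 5.65, 5.24, 4.99 and 4.67 CPM in control and 6.47, 6.22, 5.74 and 6.57 CPM in serine/glycine-free libraries, narrowly separated (log2 change 0.28, SE 0.10, edgeR adjusted p = 0.0313). Rpa3 had the lowest counts of the 40 genes and the shortest transcript, at 0.181 times the median. Rpa3 no longer passed after correction for length (adjusted p = 0.183) or without control replicates 3 (0.0717) or 4 (0.103) or serine/glycine-free replicates 1 (0.0760) or 4 (0.0806). Rpa1 (0.02) and Rpa2 (0.03) did not pass, and the Rpa1 interval ended at 1.06-fold.

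The enzymes that finish lagging-strand fragments differed in their calls. Lig1, which seals the nicks, measured 45.5, 44.8, 42.1 and 45.9 CPM in control and 50.5, 52.2, 51.6 and 50.6 CPM in serine/glycine-free libraries, without overlap (log2 change 0.20, SE 0.042, edgeR adjusted p = 0.00014). Fen1, which cuts the flap before the seal is made, measured 57.5, 57.8, 55.2 and 53.1 CPM and 55.0, 54.2, 57.1 and 52.8 CPM, mixed between groups (log2 change -0.03, adjusted p = 0.625). Their intervals, 1.09-fold to 1.22-fold and 0.926-fold to 1.04-fold, did not meet.

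Of the 4 regulators 1 rose. E2f1, a transcription factor that drives S phase genes, measured 46.1, 44.2, 45.2 and 44.3 CPM in control and 46.5, 52.0, 49.0 and 53.1 CPM in serine/glycine-free libraries. Replicate 1 of the latter was close to the highest control and the other 3 were well above it (log2 change 0.16, SE 0.044, edgeR adjusted p = 0.0042). Ccne2, a partner of the kinase Cdk2 at S phase entry, had a change of similar size that did not pass (log2 change 0.19, adjusted p = 0.0636). Its values spread more widely, 14.8 to 18.1 CPM in control and 17.0 to 22.8 CPM in serine/glycine-free libraries, and it was the only one of the 40 whose estimated counts were not whole, in 100% of libraries. It passed in 6 of 17 alternatives, among them without serine/glycine-free replicate 4 (0.25, adjusted p = 0.0060). Ccne1 (0.09, adjusted p = 0.187) and Uhrf1 (-0.04, adjusted p = 0.357), which carries DNA methylation through replication, did not pass.

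The 27 genes that did not pass were mostly measured tightly. For 24 of them the 95% interval lay within a 1.2-fold change in either direction, and the exceptions were Gins1, Gins3 and Ccne2. A rise like that of Cdt1, at 1.34-fold, lay outside the interval of every one of the 27.

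A wider list of 50 replication genes outside the 40 moved in both directions. Of these 9 rose, 6 fell and 35 did not pass, against 15.9% and 17.3% of all genes, and their median log2 change was 0.02. The count of rises was 5 without control replicate 1, 4 without control replicate 3 and 4 without serine/glycine-free replicate 1, and 3 in DESeq2. Among other licensing genes, the Cdt1 inhibitor Gmnn went up from a mean of 15.2 ± 0.926 CPM to one of 17.2 ± 0.220 CPM (n = 4, SD; log2 change 0.18, edgeR adjusted p = 0.0257) and Mcm8 rose (0.23), while Mcmbp, which binds Mcm proteins, fell (-0.14). At the fork, the checkpoint adaptor Clspn (0.21) and Donson (0.21) rose and the initiation factor Ticrr fell (-0.22). The polymerase delta subunits outside the 40 split, with Pold3 higher (0.15) and Pold4 lower (-0.15). Rnaseh2b of the primer-removing RNase H2 (0.17) and Top1 (0.08) rose, and Top2b fell (-0.12). None of the 4 genes of other clamp loaders passed in edgeR, in DESeq2 or in limma-voom, and 0 were under an unadjusted p of 0.05.

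Genes of chromatin assembly and nucleotide supply held larger falls than any of the 40 genes. Hells, a chromatin remodeller, stood at 51.3 ± 2.19 CPM in control and 38.9 ± 3.36 CPM in serine/glycine-free libraries (n = 4, SD; a log2 change of -0.40 with edgeR adjusted p = 3.6e-08). Chaf1b, a subunit of the chaperone that places histones behind the fork, rose from 15.2 ± 0.958 to 19.2 ± 0.789 CPM (0.33). Samhd1, which breaks down deoxynucleotides and is abundant in macrophages, fell from 709 ± 3.79 to 533 ± 1.35 CPM (-0.41, adjusted p = 3.5e-19). Tyms, which makes thymidylate with a folate-bound carbon, rose (0.28), with counts that were not whole in 100% of libraries. The ribonucleotide reductase subunit Rrm2, a marker of S phase, stood at 90.4 ± 1.69 and 90.8 ± 1.42 CPM (adjusted p = 0.914). Of 8 nucleotide supply genes 6 had positive changes, against 6095 of all 11700 tested, and 1 rose and 1 fell past the threshold.

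**Figure D4:**
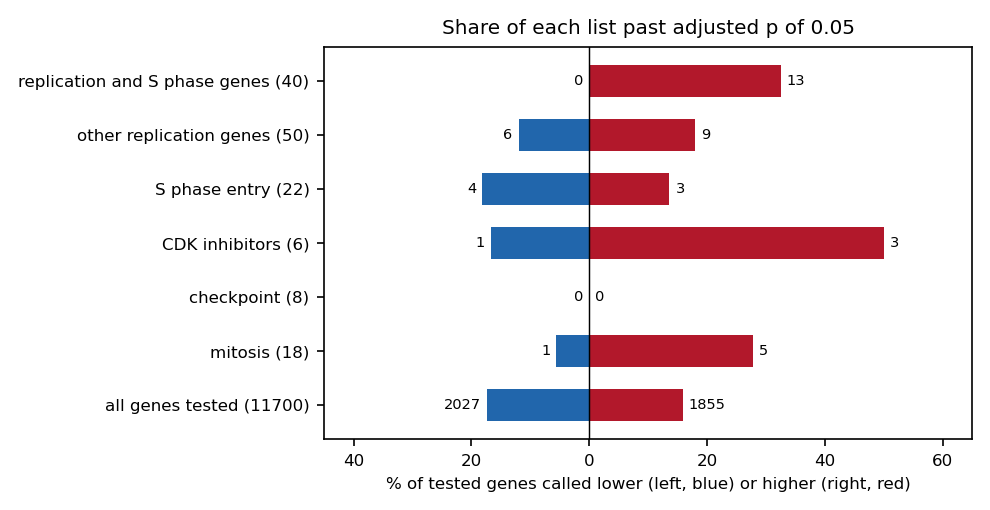
Share of each gene list that passed an adjusted p of 0.05, higher to the right in red and lower to the left in blue, with the number of genes at each bar and the number tested in brackets. The replication and S phase genes have 13 higher and 0 lower, while the other replication genes have 9 and 6 and all tested genes 1855 and 2027.

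Regulators of the G1 to S step outside the 40 included genes that rose and genes that fell. Of 22 genes of S phase entry 3 rose and 4 fell, so that 31.8% were called, close to the 33.2% of all tested genes. The cyclin D genes split: Ccnd1 rose from 322 ± 5.74 to 340.5 ± 7.35 CPM (0.08, adjusted p = 0.0122), while Ccnd3 (-0.39) and Ccnd2 (-0.14) fell. The S phase cyclin Ccna2 (0.15) and the E2F partner Tfdp2 (0.23) rose, and the pocket protein genes Rbl2 (-0.17) and Rb1 (-0.11) fell. Counts of Ccnd1, Ccnd3, Ccna2 and Rbl2 were not whole in 100% of libraries. Of 6 tested inhibitors of cyclin-dependent kinases 3 rose and 1 fell, against 15.9% and 17.3% of all tested genes. Cdkn1a, which encodes p21, was by far the most abundant and fell from 825 ± 12.4 to 684 ± 9.08 CPM (n = 4, SD; log2 change -0.27, edgeR adjusted p = 3.0e-13). Cdkn2c rose from 4.44 ± 0.633 to 6.33 ± 0.722 CPM (0.51), and Cdkn2d (0.36) and Cdkn1c (0.50) rose at similarly low levels. None of 8 replication checkpoint genes passed in edgeR, against 33.2% of all tested genes, and 0 did at an unadjusted p under 0.05, by DESeq2 or by limma-voom. The checkpoint adaptor Clspn, which rose, was counted with the fork genes and is not among the 8.

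Of 18 mitosis genes, 5 rose and 1 fell, and 12 did not pass; the 33.3% called was close to the 33.2% of all tested genes. Ccnb2 rose from 17.4 ± 1.23 to 21.8 ± 1.59 CPM (n = 4, SD; log2 change 0.33, edgeR adjusted p = 5.8e-05). Aurka (0.14), Bub1 (0.14), Tpx2 (0.11) and Kif20a (0.15, with counts not whole in 100% of libraries) also rose, while the spindle motor gene Kif11 fell (-0.30, adjusted p = 8.5e-06). Mki67, which marks cells in cycle, stood at 109 ± 6.76 and 109 ± 5.90 CPM (adjusted p = 0.990), and Top2a at 112 ± 4.03 and 108 ± 3.79 CPM (adjusted p = 0.206). The 95% interval of the Mki67 change ran from 0.941-fold to 1.06-fold.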

How the data were processed

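The 8 libraries were made from Trizol-extracted RNA with oligo-dT beads, according to the labels. Per the submitters' processing notes, BWA, Bowtie2 and RSEM were used with GRCm38.p6; for their versions, as for settings, the sources used here give nothing. The authors deposited estimated counts, FPKM and TPM per gene for each library. TPM served to compare levels between genes and, with counts, to derive each gene's effective length. The FPKM deposited by the authors entered no result.

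Counts (8.06 to 8.47% not whole, tolerance 1e-06) were rounded. Genes were kept by filterByExpr of edgeR 4.0.16 (minimum count 10, minimum total 15), leaving 11700. TMM scaling and the robust quasi-likelihood test (6 residual degrees of freedom) compared serine/glycine-free with control, with Benjamini-Hochberg adjustment over all 11700. CPM values are TMM-scaled. At these depths 3 counts equal 0.164 to 0.171 CPM. DESeq2 1.42.0, limma-voom (limma 3.58.1) and the alternatives in the closing section were also run, and the fit was tested on simulated data. The member genes and lists were chosen with earlier results of these data known. Of each other list, up to 4 genes with the smallest adjusted p among those past the threshold were named. Ccnd1, Ccna2, Rb1, Bub1 and Tpx2, which complete the calls of their lists, Rrm2, Top2a and Mki67, the subunit pairs and the sums without certain genes were chosen after values were seen. Promoters came from the RefSeq table of GRCm38.p6. Replicate numbers were not treated as pairs.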

Additional observations from a re-analysis of the deposited data

Results flagged for a closer look

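In 5 of 80 gene-by-group sets of 4 libraries, 1 library stood apart from the other 3 (Dixon's test at 95%); chance gives about 1 in 20. Orc2 was 53.6 CPM in serine/glycine-free replicate 4 and 61.3 to 62.6 CPM in the other 3. Mcm2 was 79.6 CPM in control replicate 4 against 82.1 to 82.6 CPM. Mcm7 was 62.2 CPM in serine/glycine-free replicate 1, below the other 3 at 65.8 to 66.3 CPM. Mcm10 was 25.4 CPM in serine/glycine-free replicate 2 against 20.6 to 21.2 CPM. Rpa1 was 95.7 CPM in serine/glycine-free replicate 3 against 91.5 to 92.0 CPM. The 5 flags fell in 5 different libraries.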

How the results depend on the processing

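The count of replication genes that rose, 13, was 9 to 14 over 17 alternatives, and 9 genes kept their call in every one; no called gene changed direction. The count that fell, 0, became 1 with no filter on low counts and 1 with the length trend removed, and was 0 to 2 when 1 library was left out. The count of other replication genes that rose, 9, was 3 in DESeq2 and 3 at an adjusted p of 0.01, and 4 to 9 with 1 library left out. The count of subunit pairs without overlap, 11, was 12 to 17 with 1 library left out, an alternative chosen after seeing the data. Leaving out a library cannot create an overlap, so this count could only stay or rise and says nothing of stability. With the replicate number as a block 14 replication genes rose, Ccne2 being added (adjusted p = 0.0266). Same-numbered libraries correlated at -0.0943 to 0.0609 over 4 pairs and only 1 of 4 serine/glycine-free libraries correlated best with its own number, so the numbers were not taken as a pairing. Rpa3, with the fewest counts, had the widest standard error of the 40 genes, 0.10 on the log2 scale.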
